A study of Mus musculus with 6 samples.

Results

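The genes described here encode 10 integrin subunits that bind fibronectin or the RGD tripeptide: the alpha chains Itga2b, Itga4, Itga5, Itga8, Itga9 and Itgav and the beta chains Itgb3, Itgb5, Itgb6 and Itgb8. They were taken by name from the 17524 genes of the deposited table, and all 10 were found there. The libraries were made from mouse heart. All animals had the left anterior descending coronary artery ligated, which causes a myocardial infarction. Of the 6 libraries, 3 are labelled wild type and are called control 35, 36 and 37 after their titles. The other 3 are labelled TFEB overexpression (TFEB 34, 41 and 43), and the design text names the line R26-LSL-TFEB [+/+]; Acta2-cre, in which Cre under the Acta2 promoter switches on a TFEB cassette at the Rosa26 locus. Acta2 encodes smooth muscle actin, and its promoter is active in smooth muscle and in myofibroblasts, so the cassette is not meant to be on in every cell. The sources used here do not give age, sex, the time after ligation, or whether controls carried Cre or the cassette. Separate animals are not stated either. The p-values therefore set the group difference against the spread between these samples, which may be technical. The series' title places thrombospondin 1 and focal adhesion, the site at which integrins act, at the centre of the study.

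Integrins are receptors of 1 alpha and 1 beta chain that link the matrix outside the cell to actin inside it. Itga5 pairs with Itgb1 as the classical fibronectin receptor. Itgav pairs with Itgb1, Itgb3, Itgb5, Itgb6 or Itgb8, and its pairs with Itgb6 and Itgb8 release active TGF-beta from its latent complex. Itga8 with Itgb1 binds nephronectin and fibronectin, Itga9 with Itgb1 binds tenascin C and osteopontin, and Itga4 with Itgb1 or Itgb7 binds VCAM and fibronectin on leukocytes. Itga2b with Itgb3 is the fibrinogen receptor of platelets.

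The labels describe the material both as heart tissue and as primary fibroblasts. The 8 cardiomyocyte markers summed to 60390 to 84780 CPM in control and 49770 to 92730 CPM in TFEB overexpression, against 4798 to 8829 and 3682 to 10900 CPM for the 8 fibroblast markers, so heart muscle RNA was abundant in every library. CPM is the count of a gene scaled to the size of its library, with TMM scaling. Library totals ran from 12942486 to 14969275 estimated counts. Tfeb stood at 34.4, 33.8 and 41.4 CPM in controls 35, 36 and 37, against 45.4, 45.2 and 39.4 CPM in TFEB 34, 41 and 43, so the groups overlapped. The sources used here do not say whether transcripts of the introduced cassette are counted under mouse Tfeb, so these values do not settle how strongly it was expressed. Acta2 stood at 106, 100.3 and 138 CPM in control and at 214, 291 and 174 CPM in TFEB overexpression, without overlap, and did not pass the test (log2 fold change 0.98, SE 0.22, edgeR adjusted p = 1.00).

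Among the 10 subunits, Itgb5 was the most abundant. Levels of different genes are compared in TPM, which is scaled for transcript length. The median TPM over the 6 libraries was 137 for Itgb5 (79.6 to 368), 44.9 for Itga5 (30.3 to 67.9), 32.7 for Itga9 (20.2 to 51.0), 15.9 for Itgav (7.43 to 21.8) and 8.40 for Itgb6 (4.51 to 13.9). It was 4.00 for Itga8 (2.93 to 6.12), 3.29 for Itgb3 (1.20 to 4.83), 1.44 for Itgb8 (0.59 to 2.27), 1.44 for Itga4 (0.91 to 2.39) and 1.20 for Itga2b (0.76 to 7.61). Only Itgb5 had a range that did not touch that of the next gene in this order. Neighbours further down overlapped in range, although Itga5 exceeded Itga9, Itga9 exceeded Itgav, Itga8 exceeded Itgb3, and Itgb3 exceeded Itgb8 within each of the 6 libraries. Itgb8 and Itga4 could not be ordered, since each was the higher in 3 libraries, and the same was true of Itga4 and Itga2b. Itgb1, the common beta chain that is not among the 10, was higher than any of them, with a median of 290 TPM (259 to 445).

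**Figure D1:**
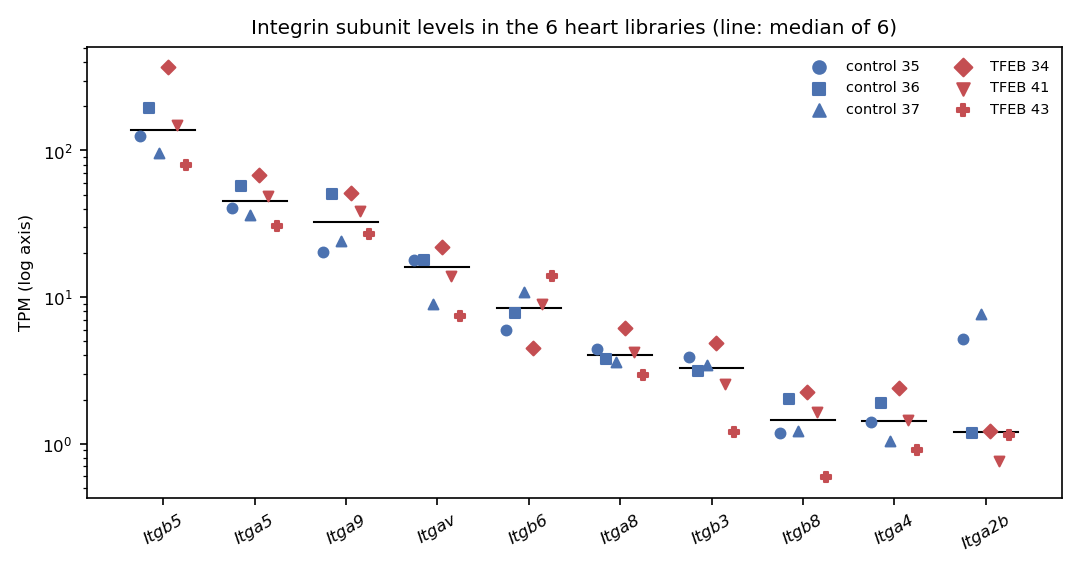
TPM of the 10 integrin subunit genes on a log axis, ordered by the median over 6 libraries (black line), with a marker for each library (blue, control; red, TFEB overexpression). Itgb5 spans 79.6 to 368 TPM and lies above the others, while Itga2b lies at 0.76 to 1.22 TPM in 4 libraries and at 5.20 and 7.61 TPM in controls 35 and 37.

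The beta chains that pair with Itgav were present in very unequal amounts. Itgb5 made up 86.1% to 93.7% of the summed TPM of Itgb3, Itgb5, Itgb6 and Itgb8 in control and 83.6% to 96.9% in TFEB overexpression. Itgb6 followed with 3.78% to 9.71% and 1.19% to 14.6%, Itgb3 with 1.52% to 3.09% and 1.26% to 1.57%, and Itgb8 with 0.87% to 1.11% and 0.60% to 1.02%. In TFEB 34, however, Itgb3 was above Itgb6 (1.27% against 1.19%). Itgb5 was 6.99 to 16.9 times as abundant as Itgav in TPM, and Itgb1 15.7 to 35.1 times. For the fibronectin receptor, Itgb1 exceeded Itga5 by 6.11 to 8.60 times.

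Sequences upstream of the start were read for the genes with a window in the RefSeq promoter table (GRCm38.p6), which covered 9 of the 10 members with 10 windows. Of these, 6 end at the first base of the gene's locus, the 3 printed ones among them; those of Itga8, Itga9 and Itgav and 1 of Itgb6 lie at other starts inside or across the locus. The 3 sequences are printed because Itga4, Itga5 and Itgb5 ranked the 6 libraries in the same order (described with their values further on), and because no exon of the GENCODE M21 annotation overlaps them. That shared order was picked after the values were seen, and its relation to these sequences was not tested. Each is the 250 bases before the start in the 5′ to 3′ direction of the gene, and capitals mark the GC box GGGCGG or its reverse complement.
Itga4, chr2:79255176-79255425, plus strand: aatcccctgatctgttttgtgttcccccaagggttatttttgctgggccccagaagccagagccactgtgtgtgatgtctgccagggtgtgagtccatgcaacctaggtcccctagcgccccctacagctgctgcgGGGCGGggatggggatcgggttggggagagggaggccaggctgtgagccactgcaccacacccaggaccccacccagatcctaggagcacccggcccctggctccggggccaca
Itga5, chr15:103366792-103367041, minus strand: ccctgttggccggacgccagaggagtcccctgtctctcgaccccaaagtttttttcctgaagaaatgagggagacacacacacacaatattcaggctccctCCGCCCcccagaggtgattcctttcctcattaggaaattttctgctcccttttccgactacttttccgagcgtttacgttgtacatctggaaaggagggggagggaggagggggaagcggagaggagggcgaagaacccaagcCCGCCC
Itgb5, chr16:33829415-33829664, plus strand: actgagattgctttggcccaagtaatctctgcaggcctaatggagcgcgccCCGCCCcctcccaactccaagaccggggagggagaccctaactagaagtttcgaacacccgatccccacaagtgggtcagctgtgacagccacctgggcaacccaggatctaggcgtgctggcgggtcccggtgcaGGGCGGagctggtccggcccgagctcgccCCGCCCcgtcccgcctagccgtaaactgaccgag
The GC box occurred 1 time upstream of Itga4, 2 times upstream of Itga5 and 3 times upstream of Itgb5, and in none of the other 7 member windows. It was thus in 3 of the 10 member windows, against 32.7% of all 32851 windows of this length in the table. Of the 7 without it, all but that of Itgav overlap an annotated exon. The core CACGTG, which TFEB and related factors recognise, was in 0 of the 10 member windows and in 6.02% of all windows. Its extended form TCACGTG, which contains that core, was in 0 of 10 and 3.13% of all windows, and the longer CLEAR palindrome, which contains both, was in 0 of 10 and 0.24%. The GATA motif AGATAA was in 0 of 10 (9.99% of all windows), as was the AP-1 motif TGACTCA (4.46%). The TEAD motif GGAATG was in 0 of 10 (12.6%), and so was the TATA box TATAAA (12.4%). Both strands were searched, and a missing match says only that these letters are not in these windows.

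No integrin subunit differed between TFEB overexpression and control past the test. Of the 10 members, all of which passed the filter on low counts, 0 were called by the edgeR quasi-likelihood test at an adjusted p under 0.05, as were 0.00% of the 13565 genes tested. At an unadjusted p under 0.05 there was 1 member, Itga2b, and 1.21% of all genes (164). Itga2b was lower in TFEB overexpression, as were 0.833% of all genes at that p. Of the 10 members, 6 had a fitted value above 0 (51.0% of all genes), with a median log2 fold change of 0.11 against 0.003 over all genes. None of the 10 had groups without overlap, against 4.75% of all genes. DESeq2 also called 0 members and had Itga2b at an unadjusted p of 0.000942 (adjusted p = 0.881). The unadjusted p of Itga2b was 0.109 with limma-voom. With edgeR it was 0.000261 without control 36, 0.0527 without control 37 and 0.0598 without TFEB 41. The adjusted p of Itga2b was at least 0.792 under every alternative in which it was tested. Itga9 without control 36 (unadjusted p = 0.0229) and Itgb3 without TFEB 34 (0.0345) were under 0.05 in edgeR fits of the remaining libraries, both with an adjusted p of 1.00. Without TFEB 34 the median of the 10 members was -0.23, and without TFEB 43 it was 0.32.

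**Figure D2:**
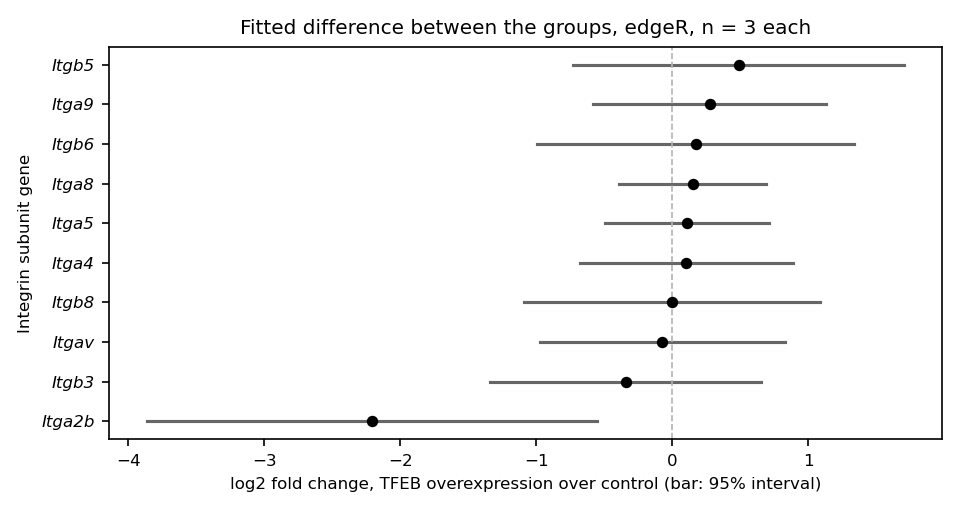
Fitted log2 fold change of TFEB overexpression over control for the 10 subunits (point) with its 95% interval from edgeR (bar), n = 3 libraries a group. The intervals of 9 subunits span 0; that of Itga2b, at -2.21, does not, and its adjusted p was 1.00.

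For most of the subunits, the libraries of a group differed more than the groups did, and most shared the same extremes. Itga2b was an exception, with a log2 fold change of -2.21. Its SD of log2 CPM was 0.35 in TFEB overexpression and 1.45 in control. TFEB 34 was the highest and TFEB 43 the lowest of the 6 libraries for 7 of the 10 members (Itga4, Itga5, Itga8, Itgav, Itgb3, Itgb5 and Itgb8), an arrangement that 14.9% of all genes tested showed. These 7 were counted after their values were seen, and no test was made. TFEB 34 stood above TFEB 43 in 8 of the 10 members and in 50.4% of all genes. The highest library was at least 2 times the lowest in 8 of the 10 members and in 25.3% of all genes. The median SD of log2 CPM over the 6 libraries was 0.58 for the members and 0.21 for all genes. The same arrangement held for 7 of 8 tested markers of activated fibroblasts, which summed to 611 to 4518 CPM in control and 348 to 8417 CPM in TFEB overexpression. It held for 8 of 10 macrophage and monocyte markers, which summed to 539 to 963 CPM and 476 to 1313 CPM. It held for 3 of 8 general fibroblast markers, for 3 of 10 smooth muscle and pericyte markers (3116 to 4736 CPM in control, 3926 to 5372 CPM in TFEB overexpression) and for 0 of 8 cardiomyocyte markers. Col1a1 is on both fibroblast lists and had this arrangement. It held for 0 of 6 endothelial, 1 of 6 lymphatic endothelial and 0 of 5 tested Schwann cell markers. No marker of these lists was at 0 in any library. The part of these cell types in the integrin values was not tested, and fewer cells of a type and less RNA per cell cannot be told apart in bulk RNA.

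**Figure D3:**
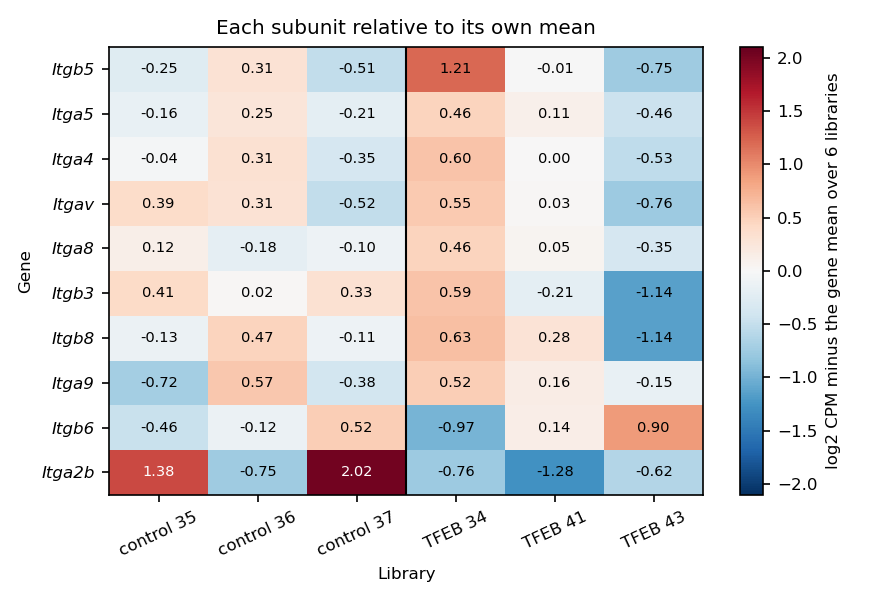
log2 CPM of each subunit minus its own mean over the 6 libraries, with controls left of the black line and TFEB overexpression right of it. The upper 7 rows are highest in TFEB 34 and lowest in TFEB 43, Itgb6 runs the other way, and Itga2b is highest in controls 37 and 35.

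Itga5, the alpha chain of the fibronectin receptor (chromosome 15, 103344286 to 103366791), measured 102.5, 136 and 98.7 CPM in controls 35, 36 and 37, against 157, 123 and 83.1 CPM in TFEB 34, 41 and 43. The TFEB libraries held both the highest and the lowest value. Controls averaged 112 ± 20.5 CPM and TFEB libraries 121 ± 37.1 CPM (SD, n = 3 each), and the ratio was 1.08 (95% interval 0.709 to 1.64, edgeR adjusted p = 1.00). Its partner Itgb1 stood at 669, 856 and 664 CPM in control and at 976, 712 and 678 CPM in TFEB overexpression. The controls lay between 664 and 856 CPM and the TFEB libraries reached above them only in TFEB 34 (ratio 1.08, 95% interval 0.769 to 1.52). Nearly all reads of Itga5, 99.9%, were assigned to 1 of its 2 transcript models.

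Itgav (chromosome 2, 83722303 to 83806917), the alpha chain with the widest choice of partners, stood at 75.0, 70.9 and 40.0 CPM in control and at 84.0, 58.6 and 33.8 CPM in TFEB overexpression. Control 37 and TFEB 43 were the low libraries, and the groups averaged 62.0 ± 19.1 and 58.8 ± 25.1 CPM (SD, n = 3 in either group). TFEB overexpression over control gave a ratio of 0.950 (95% interval 0.509 to 1.77).

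Itgb5 (chromosome 16, 33829665 to 33949338), whose pair with Itgav binds vitronectin, had the highest library by far in TFEB 34. It stood at 203, 298 and 169 CPM in controls 35, 36 and 37, against 558, 239 and 143 CPM in TFEB 34, 41 and 43. TFEB 34 held 3.91 times the CPM of TFEB 43, and the other TFEB library lay inside the control range. Group averages were 223 ± 67.1 and 313 ± 217 CPM (SD, n = 3 a group), with a log2 fold change of 0.49 (SE 0.50, edgeR adjusted p = 1.00), or -0.23 without TFEB 34. The leading one of its 3 transcript models held 71.3% to 75.7% of the counts in control and 71.3% to 76.2% in TFEB overexpression, and the smallest held 0.62% to 2.38%.

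Itgb3 (chromosome 11, 104608000 to 104670476), found on platelets with Itga2b and on many cells with Itgav, stood at 13.1, 9.97 and 12.4 CPM in control and at 14.9, 8.49 and 4.38 CPM in TFEB overexpression. The controls were close together and the TFEB libraries enclosed them. The log2 fold change was -0.34 (SE 0.41), and it was -0.012 without TFEB 43 and -0.87 without TFEB 34. Itgb8 (chromosome 12, 119162803 to 119238276), an activator of latent TGF-beta, stood at 5.97, 9.13 and 6.07 CPM in control and at 10.2, 7.98 and 2.89 CPM in TFEB overexpression. The group means nearly coincided at 7.06 ± 1.79 and 7.02 ± 3.74 CPM (SD, n = 3 each), with a ratio of 0.9989 and a 95% interval from 0.470 to 2.12. Counts of Itgb8 were low, from 35 to 160 per library.

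Itgb6 (chromosome 2, 60598292 to 60722603), the other TGF-beta activating partner and mainly an epithelial gene, had the extremes of those 7 members reversed. It stood at 16.6, 21.1 and 32.9 CPM in controls 35, 36 and 37, against 11.6, 25.3 and 42.7 CPM in TFEB 34, 41 and 43. TFEB 43 was the highest and TFEB 34 the lowest library, as in 15.3% of all genes, with a log2 fold change of 0.17 (SE 0.48, edgeR adjusted p = 1.00), or -0.35 without TFEB 43. Relative to Itgav, Itgb6 had 0.207 times the TPM in TFEB 34 and 1.87 times in TFEB 43. The same extremes were seen in 5 of 8 cardiomyocyte markers, with the summed levels given above. The 8 mesothelial and epithelial markers, of which Krt8 and Epcam were at 0 in at least 1 library, summed to 1.71 to 186 CPM in control and 27.9 to 55.7 CPM in TFEB overexpression. The lowest of these sums was in control 37, where Itgb6 was the second highest. The part of these cell types in the Itgb6 values was not tested.

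Itgb6 also differed between libraries in its transcript models. The model XM_006498811 took 47.05 of the estimated counts in control 35 and 64.06 in TFEB 34, or 19.0% and 35.2% of the gene. It took 0.00% in controls 36 and 37 and in TFEB 41, and 0.002% in TFEB 43. The model NM_001159564 held the largest share in every library but TFEB 34, from 59.9% to 70.4% in control, 81.0% in TFEB 41 and 85.2% in TFEB 43, and 30.6% in TFEB 34. Control 35 and TFEB 34 were the libraries with the lowest Itgb6 counts, and how the reads were divided among models was decided by the authors' quantification.

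**Figure D4:**
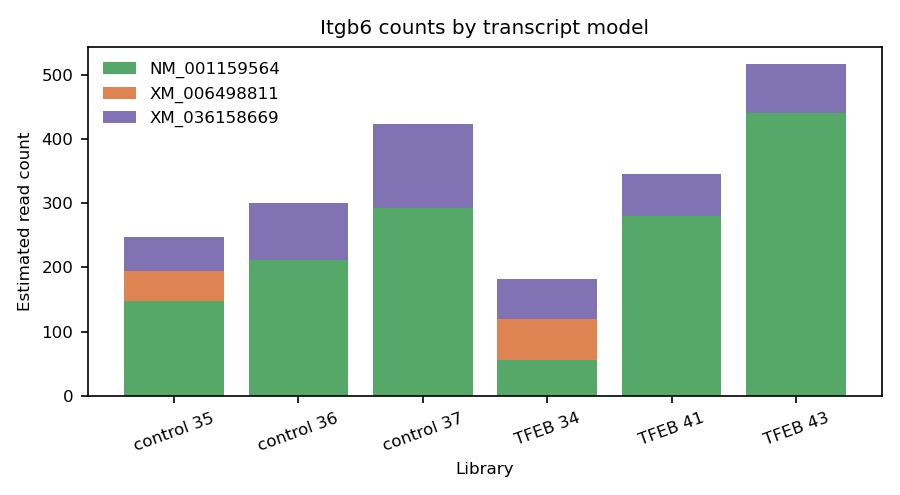
Estimated read counts of Itgb6 in each library, stacked by transcript model. The middle model is present in control 35 and TFEB 34, and the tallest bar is TFEB 43.

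The alpha chains that bind fibronectin or other ligands with Itgb1 did not differ between the groups past the test either. Itga8 (chromosome 2, 12106632 to 12301985), a gene of mesenchymal cells, stood at 14.96, 12.2 and 12.8 CPM in control and at 19.1, 14.3 and 10.8 CPM in TFEB overexpression (ratio 1.11, 95% interval 0.764 to 1.61). The control values lay inside the TFEB range. Itga4 (chromosome 2, 79255426 to 79333114) stood at 8.19, 10.5 and 6.53 CPM in control and at 12.8, 8.42 and 5.78 CPM in TFEB overexpression (ratio 1.07, 95% interval 0.624 to 1.85). From low to high, Itga4, Itga5 and Itgb5 all ranked the libraries TFEB 43, control 37, control 35, TFEB 41, control 36 and TFEB 34. The share of all genes with this full order was not counted, and 14.9% had its highest and lowest library. The leukocyte beta chain Itgb7, which pairs with Itga4, stood at 1.68, 2.53 and 1.09 CPM in control and 3.18, 2.27 and 1.16 CPM in TFEB overexpression (ratio 1.25, 95% interval 0.567 to 2.77). Its highest library was also TFEB 34.

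Itga9 (chromosome 9, 118606709 to 118901003), a receptor for tenascin C and osteopontin, was the alpha chain whose controls were farthest apart after Itga2b. It stood at 76.9, 188 and 97.2 CPM in controls 35, 36 and 37, against 182, 142 and 114 CPM in TFEB 34, 41 and 43. Controls 35 and 37 lay below all TFEB libraries, and control 36 lay above all of them. Group averages were 121 ± 59.1 and 146 ± 33.96 CPM (SD, n = 3 a group), with a log2 fold change of 0.27 (SE 0.36, edgeR adjusted p = 1.00). It was 0.75 without control 36 and 0.033 without control 35. Of its 2 transcript models, the leading one held 75.1% to 86.8% of the counts in control and 72.3% to 85.2% in TFEB overexpression.

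Itga2b (chromosome 11, 102453297 to 102469883), the alpha chain of the platelet fibrinogen receptor, had the widest range of the 10 members. It stood at 9.999, 2.18 and 15.7 CPM in controls 35, 36 and 37, against 2.16, 1.46 and 2.40 CPM in TFEB 34, 41 and 43. Controls 35 and 37 were high, and control 36 lay within the TFEB range, so the groups overlapped. Control averaged 9.30 ± 6.80 CPM and TFEB overexpression 2.01 ± 0.485 CPM (SD, n = 3 in either group). The ratio of TFEB overexpression to control was 0.216 with a 95% interval from 0.0687 to 0.680 (edgeR unadjusted p = 0.0165, adjusted p = 1.00). Without control 37 the log2 fold change was -1.60, against -2.21 over all libraries and -2.68 without control 36. Counts ran from 20 to 202 per library.

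Most, but not all, platelet genes were also highest in controls 35 and 37, a pair of libraries taken from the values of Itga2b itself. Of 12 other megakaryocyte and platelet genes in the table, 10 had these controls as their highest pair of libraries. Among the 6 of the 12 that passed the filter it was 4, and among all genes tested 6.87%. The exceptions were Gp1ba, which was highest in TFEB 41 and 43 (11.9 and 11.8 CPM), and Gp1bb, which was highest in TFEB 34 (3.18 CPM). Both encode chains of a platelet receptor for von Willebrand factor. With Itga2b the 13 genes summed to 20.9 to 87.8 CPM in control and 22.5 to 31.3 CPM in TFEB overexpression. Gp9, Gp5, Gp6 and F2rl2 were at 0 in at least 1 library, and 7 of the 13 passed the filter. Ppbp, a platelet chemokine gene, stood at 7.32, 0.702 and 16.3 CPM in control and at 1.65, 0.806 and 3.14 CPM in TFEB overexpression. Pf4, the platelet factor gene, stood at 11.6, 5.62 and 17.8 CPM and at 4.96, 9.52 and 8.76 CPM. The platelet gene Gp9 stood at 2.01, 0.0702 and 4.59 CPM in control, was at 0 in TFEB 41, and stood at 0.191 and 0.744 CPM in TFEB 34 and 43. Itgb3, the partner of Itga2b, did not have that arrangement, since its highest library was TFEB 34. Summed markers of red blood cells stood at 782, 1275 and 3926 CPM in controls 35, 36 and 37, against 3276, 819 and 1512 CPM in TFEB 34, 41 and 43. Controls 35 and 37 were also the highest pair for 3 of 6 neutrophil, 2 of 6 endothelial, 2 of 6 Schwann cell and 1 of 8 fibroblast markers. Each other cell type list had 0 such markers. The part of platelets or blood in the Itga2b values was not tested.

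**Figure D5:**
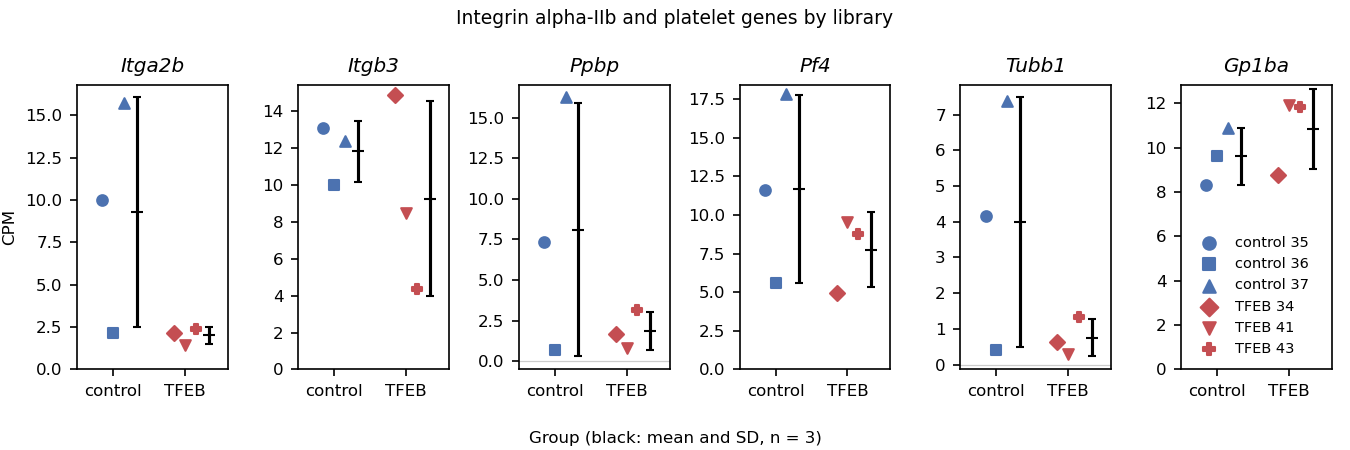
CPM of Itga2b, its partner Itgb3 and 4 platelet genes in each library, with the mean and SD of each group (n = 3). Itga2b, Ppbp, Pf4 and Tubb1 are highest in controls 37 and 35; Itgb3 and Gp1ba are not.

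The ligands of these integrins ranged from steady to very variable between libraries. The median fold between the highest and lowest library was 3.36 over the tested ligands and 2.94 over the 10 subunits. Of 26 ligand genes listed, 21 were tested, 0 were called, and 16 had a value above 0 (51.0% of all genes), with a median log2 fold change of 0.31. TFEB 34 was the highest and TFEB 43 the lowest library in 10 of the 21, against 14.9% of all genes. Fibronectin (Fn1), the ligand of Itga5 with Itgb1, stood at 721, 1623 and 149 CPM in controls 35, 36 and 37, against 2728, 1037 and 130.1 CPM in TFEB 34, 41 and 43. TFEB 34 held 21.0 times the Fn1 of TFEB 43, against 1.89 times for Itga5. Osteopontin (Spp1) stood at 18.9, 16.4 and 3.19 CPM in control and 62.7, 47.8 and 5.54 CPM in TFEB overexpression, with a log2 fold change of 1.59 (SE 0.93). Tenascin C (Tnc) stood at 57.2, 97.9 and 7.62 CPM in control and 67.1, 111 and 4.13 CPM in TFEB overexpression, so control 37 and TFEB 43 were low for it as for Itgav. Vitronectin (Vtn), the ligand of Itgav with Itgb5, was among the steadier ligands, at 25.4, 30.8 and 32.8 CPM in control and 30.8, 38.7 and 40.8 CPM in TFEB overexpression (ratio 1.24, 95% interval 0.962 to 1.59). The vascular ligand Vcam1 of Itga4 (log2 fold change -0.069, SE 0.36) and the Itga8 ligand Npnt (-0.11, SE 0.32) had values below 0, and Mfge8, a ligand of the Itgav integrins, stood at 0.35 (SE 0.26). Thrombospondin 1 (Thbs1), the ligand named in the title, stood at 66.4, 275 and 45.7 CPM in controls 35, 36 and 37, against 517, 190 and 21.5 CPM in TFEB 34, 41 and 43. The TFEB libraries enclosed the controls, as for Itga5 and Itgb5, with a log2 fold change of 0.91 (SE 1.12, edgeR adjusted p = 1.00), or -0.29 without TFEB 34. Periostin (Postn), a matrix protein that is also on the activated fibroblast list, had the same extremes, with 3366 CPM in TFEB 34 and 87.6 CPM in TFEB 43.

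Most, but not all, genes of latent TGF-beta, which Itgb6 and Itgb8 integrins act on, and of its binding proteins had the same extremes. Of 9 genes, 9 were tested, 0 were called and 7 had a value above 0 (51.0% of all genes), with a median of 0.21. TFEB 34 was highest and TFEB 43 lowest in 6 of the 9, against 14.9% of all genes. Tgfb1, Tgfb3 and Ltbp1 are also on the ligand list. Tgfb3 stood at 68.6, 130 and 38.4 CPM in control and 239, 112 and 26.6 CPM in TFEB overexpression (log2 fold change 0.68, SE 0.78). Tgfb1 stood at 0.18 (SE 0.24), Ltbp2 at 1.31 (SE 1.54) and Ltbp1 at -0.18 (SE 0.20). The values of Ltbp2 ranged from 5.21 to 553 CPM, both in TFEB libraries. Ltbp1 was instead highest in control 37 (125.6 CPM) and lowest in TFEB 34 (82.65 CPM).

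The genes of proteins that activate integrins or bind their tails inside the cell varied less as a set than the ligand genes. Their mean log2 CPM, each gene relative to its own mean, ran from -0.20 in TFEB 43 to 0.30 in TFEB 34. For the tested ligands it ran from -0.95 to 0.90 in the same libraries. Single genes ranged more widely, with 8.79 times from the lowest to the highest library for Dok1 and 4.80 times for Parvg. Of 25 genes, 24 were tested, 0 were called and 19 had a value above 0 (51.0% of all genes), with a median of 0.08. TFEB 34 was highest and TFEB 43 lowest in 7 of these 24, against 14.9% of all genes. The smallest p were those of the endocytic adaptor Dab2 (0.16, SE 0.13), the kinase-like Ilk (0.13, SE 0.12) and talin (Tln1, 0.17, SE 0.16). Of 16 other integrin subunits, 15 were tested, 0 were called and 9 had a value above 0 (median 0.08). TFEB 34 was highest and TFEB 43 lowest in 3 of these 15. Those with the smallest p were the laminin receptor chains Itga3 (-0.15, SE 0.12) and Itgb4 (-0.41, SE 0.40) and the collagen receptor chain Itga11 (0.88, SE 0.86).

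Genes whose levels over the 6 libraries were closest to a member were found by the root mean square difference of log2 CPM, each gene relative to its own mean, among 7409 genes. For Itga5 they were Plekho1 (0.025), Fnip2 (0.035) and Shisa5 (0.039), and for Itga4 Myh10 (0.033), Cyb5r3 (0.046) and Ston1 (0.047). For Itgb5 they were Nckap1l (0.058), Serpine2 (0.095) and Fxyd6 (0.099), and for Itgav Eef1a1 (0.064), Tmc6 (0.083) and Adgra2 (0.093). Itga8 was closest to Klf13 (0.061), Itga9 to Uck2 (0.13), Itgb3 to Plek (0.25), Itgb8 to Anxa2 (0.18) and Itgb6 to Ky (0.098), Trim7 (0.13) and Mtfp1 (0.13). Itga2b lay farthest from its nearest gene among those searched, which all averaged at least 20 CPM. The nearest, Angpt1, differed by 0.62, against a root mean square deviation of 1.23 for Itga2b itself. That deviation was 0.57 for Itgb3, 0.58 for Itgb8, 0.64 for Itgb5 and 0.26 for Itga8. Relative to its own deviation, Itgb3 was thus not closely matched either. Itga2b averaged 5.65 CPM over the 6 libraries, and the platelet genes Ppbp (4.98 CPM) and Pf4 (9.71 CPM) were too low to be searched. Angpt1 stood at 333, 68.1 and 179 CPM in controls 35, 36 and 37, against 41.6, 51.8 and 99.7 CPM in TFEB 34, 41 and 43.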

How the data were processed

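RNA sequencing gave 6 mouse heart libraries, 3 a group. Per the submitters' processing notes, which give no roles, the tools were RSEM 1.3.1, HISAT2 2.1.0, DESeq2 1.4.5 and Bowtie2 2.3.4.3, with build mm10. The authors deposited estimated counts, TPM and FPKM for 62498 transcripts, and per the file headers the estimated counts are not scaled for depth, TPM are scaled to the same sum in each library and FPKM are scaled for length and depth. The sources used here give no annotation release, strand setting or filter, and reads of overlapping or antisense genes may not be told apart. The 8 normalised count columns hold no values.

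Estimated counts were summed per Entrez gene and rounded, giving 17524 genes, named from the RefSeq table of the same build (117 genes, with 0.51% of counts, had no symbol). Depth differed by 1.16 times at most. Counts of library pairs within a group differed by a chi-square of 45.0 to 155 per degree of freedom, so no library was counted as a repeat of another.

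The groups were compared in R 4.3.3 with edgeR 4.0.16, by its two-sided quasi-likelihood test after TMM scaling and filterByExpr, on 13565 genes, Benjamini-Hochberg adjusted over all of them, with calls at an adjusted p under 0.05. The script was tested on simulated data. An exact permutation test of 3 against 3 cannot go below 0.1 and was not run. The named genes are the members, their beta partners, fixed ligands and platelet genes, Tfeb, Acta2, the 3 genes of smallest p in each pathway list, and, for members of at least 5 CPM, the 3 genes (mean of at least 20 CPM, no predicted symbols) nearest in log2 CPM (prior count 2). Tubb1, Gp1ba and Gp1bb fall outside this rule and were chosen after their values were seen. The members and lists were chosen with earlier results of these data known.

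Alternatives were RLE and upper-quartile scaling, DESeq2 1.42.0, limma-voom (limma 3.58.1), no filter, 10 counts in 3 libraries, limma-trend on log2(TPM + 1), log2(TPM + 0.1) and log2(FPKM + 1) with at least 1 in 3 libraries, log2(TPM + 1) unfiltered, and leaving out each library. Figures were drawn with matplotlib 3.10.9.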

Additional observations from a re-analysis of the deposited data

How the results depend on the processing

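Of 10 alternatives that kept all libraries, 9 left 0 genes called and DESeq2 called 1, Ddit4, which is no integrin gene and is named after its value was seen; 0 members were called under any of the 16 alternatives. The median log2 fold change of the members stayed between 0.036 and 0.12 in those 10 (8 members were tested on log2(FPKM + 1)) and ran from -0.23 to 0.32 when a library was left out. The sign of Itgb8 turned under RLE (0.0019) and upper-quartile scaling (0.0098), no filter (0.0037) and DESeq2 (0.0004), and that of Tnc under limma-voom (-0.12), log2(TPM + 1) with and without a filter (-0.029), log2(TPM + 0.1) (-0.12) and log2(FPKM + 1) (-0.0048); the cause was not tested. Itga9 and Itgb3 kept their sign, from 0.033 to 0.75 and from -0.87 to -0.012 when a library was left out. The sign of 19 named genes turned when a library was left out, with ranges of -0.24 to 0.34 for Itga4, -0.12 to 0.32 for Itga5, -0.084 to 0.33 for Itga8, -0.42 to 0.20 for Itgav, -0.23 to 0.84 for Itgb5, -0.35 to 0.53 for Itgb6, -0.37 to 0.36 for Itgb8, -0.070 to 0.24 for Itgb1, -0.040 to 0.68 for Itgb7, -0.51 to 1.58 for Fn1, -0.58 to 0.91 for Tnc, -0.31 to 0.31 for Vcam1, -0.46 to 0.11 for Npnt, -0.25 to 2.23 for Postn, -0.29 to 2.12 for Thbs1, -0.050 to 0.37 for Tgfb1, -0.27 to 1.73 for Itga11, -0.18 to 1.24 for Tgfb3 and -0.32 to 3.37 for Ltbp2. Itga2b stayed below 0 under all alternatives in which it was tested, from -2.68 to -1.27, with adjusted p from 0.792 to 1.00. No paired analysis was possible because the groups share no replicate numbers. Counts as low as 20 for Itga2b and 35 for Itgb8 limit the precision of these genes.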
